A study of Mus musculus with 15 samples.

Results

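Cadherins, claudins and integrins are the 3 families of membrane proteins by which epithelial cells hold on to each other and to the matrix. Their genes were taken from the expression table by symbol alone (Cdh, Cldn or Itgb with a number, or Itga with 1 or 2 characters). The rule found 74 of the table's 38283 genes, which were 23 cadherin, 25 claudin, 18 integrin alpha and 8 integrin beta genes. RNA had been sequenced from 15 samples of mouse islet cells, purified by fluorescence-activated sorting from mice of the C57BL/6 strain. Alpha cells (n = 5) were the Venus-positive cells of Glu-Venus mice, in which the proglucagon promoter drives the fluorophore. Beta cells (n = 4) came from the same line and were selected as Venus-negative cells by light scatter and their autofluorescence signal. The delta samples (n = 6) are from animals labelled Sst-CreXROSA26EYFP/EYFP, whose fluorophore marks cells that have expressed Cre from the Sst promoter. Each sample pooled the islets of several mice, so a p-value measures the spread between pools, and no sample carried a drug or diet treatment in the labels. The delta samples thus came from another mouse line, and effects of line and of cell type cannot be told apart. Ages were not given for the sorted mice.

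Classical cadherins span the membrane and bind a cadherin of the neighbouring cell in a calcium-dependent manner, while catenins tie their tails to actin. Claudins form the strands of the tight junction, and the mix of claudins sets how tightly the gap between cells is sealed and which ions can pass. Integrins are dimers of 1 alpha and 1 beta chain that bind laminins, collagens, fibronectin and other matrix proteins. In the islet, E-cadherin and N-cadherin join the endocrine cells to each other, and integrins of the beta 1 class bind the basement membrane of the capillaries. The comparison of the 3 sorted populations asks which of these genes each endocrine cell type expresses.

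Of the 74 genes, 26 had a mean above 1 FPKM (sequenced fragments scaled by transcript length and by library size) in at least 1 cell type and were tested. These were 7 cadherin, 9 claudin, 6 integrin alpha and 4 integrin beta genes. Another 12 genes were listed at 0 in all 15 samples, 30 were above 0 in some sample but never above 1 FPKM, and 6 exceeded 1 FPKM in at least 1 sample without reaching that mean. Differences were tested with limma on log2(FPKM + 1), a scale that understates the change of genes of low level, and were called at an adjusted p under 0.05 over all 14405 genes tested. Across the 3 cell types 14 of the 26 genes were called, against 16.0% of all genes. A gene could pass the filter through 1 cell type alone, as Cdh9, Cdh22, Cldn11, Itga4, Itgad and Itgb6 did. That such a gene was tested at all depended on the group in which it was high, so these shares are a description only. Cldn3, Cldn4, Cldn6 and Cldn9 were higher in delta than in beta cells, Itgav, Itga4, Itga6 and Itgad were higher in beta than in delta cells, and delta cells exceeded both other types in Itgb6 and Itgb8.

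In beta against alpha cells, 8 of the 26 genes were called (3 higher, 5 lower), with 7.66% called over all genes (2.84% higher, 4.82% lower). The delta against alpha comparison called 6 (5 higher, 1 lower), with 6.81% over all genes (5.33% higher, 1.48% lower). The delta against beta comparison called 12 (7 higher, 5 lower), with 14.7% over all genes (11.7% higher, 2.99% lower). The median log2 difference of the 26 genes was -0.05 in beta against alpha, 0.67 in delta against alpha and 0.57 in delta against beta cells, beside -0.13, 0.13 and 0.30 for all genes tested. Scaling the samples by the median ratio moved the medians of all genes to 0, 0.01 and 0.02, and the members were then called as 5 higher and 5 lower, 5 higher and 3 lower, and 7 higher and 5 lower, where 2078, 1070 and 2684 of the 14405 genes were called in all. Over all genes the share of calls in the higher direction was 52.7%, 67.7% and 51.5% with that scaling, against 37.0%, 78.3% and 79.6% without it. In beta against alpha cells that 37.0% became 60.2% without beta sample 3 (members 4 higher, 4 lower) and 21.2% without beta sample 2 (members 3 higher, 6 lower), and the 1104 genes called became 1743 without beta sample 2 and 698 without beta sample 4. The 3 comparisons share samples, so they are not independent of each other.

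**Figure D1:**
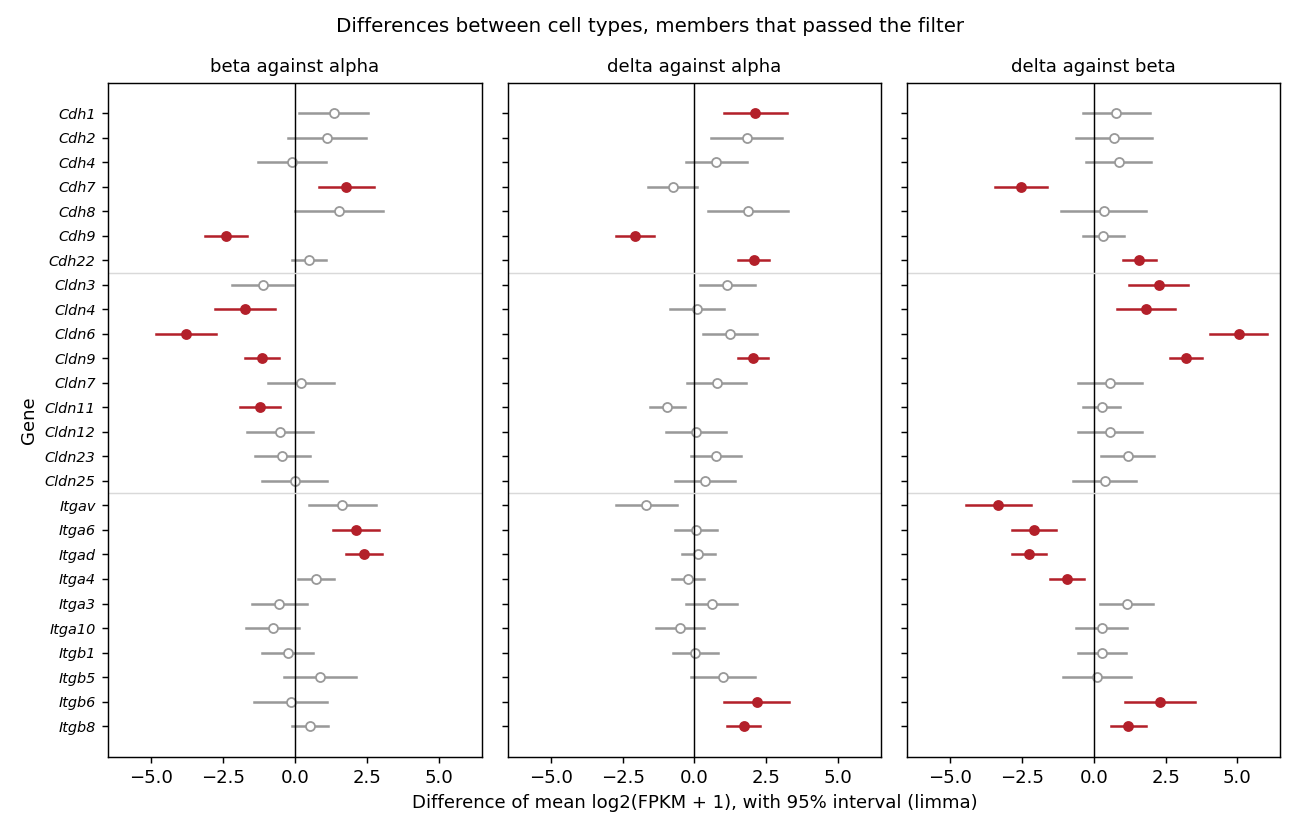
Difference of mean log2(FPKM + 1) between cell types for the 26 tested genes, from limma, with bars for the 95% interval; red filled points have an adjusted p under 0.05 and grey open points do not. Beta cells against alpha cells (left) show 3 genes higher and 5 lower, delta against alpha (middle) 5 higher and 1 lower, and delta against beta (right) 7 higher and 5 lower, with Cldn6 the farthest from 0 at 5.04.

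Cldn6 had the largest difference of any tested member, so the 250 bases upstream of the RefSeq start site are shown for it and for Cldn3 and Cldn4, which were all higher in delta than in beta cells. Sequences are from RefSeq (GRCm38.p6), 5′ to 3′ on the strand of the gene, with CCGCCC (the GC box GGGCGG on the other strand) and the E-box letters CACCTG or CAGGTG in capitals.
Cldn6: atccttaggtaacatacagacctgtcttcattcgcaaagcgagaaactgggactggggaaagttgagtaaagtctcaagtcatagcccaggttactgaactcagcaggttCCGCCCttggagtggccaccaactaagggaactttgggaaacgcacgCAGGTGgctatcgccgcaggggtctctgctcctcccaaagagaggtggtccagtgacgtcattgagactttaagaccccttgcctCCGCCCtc
Cldn3: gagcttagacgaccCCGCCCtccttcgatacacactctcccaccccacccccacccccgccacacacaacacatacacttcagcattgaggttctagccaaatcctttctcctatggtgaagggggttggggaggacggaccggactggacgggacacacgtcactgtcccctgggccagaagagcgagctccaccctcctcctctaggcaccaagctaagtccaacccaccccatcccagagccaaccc
Cldn4: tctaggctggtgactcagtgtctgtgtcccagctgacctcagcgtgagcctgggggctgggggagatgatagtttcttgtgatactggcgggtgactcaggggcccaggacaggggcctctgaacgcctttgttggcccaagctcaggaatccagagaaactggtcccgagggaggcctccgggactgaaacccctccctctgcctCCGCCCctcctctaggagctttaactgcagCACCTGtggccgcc
The windows are chr17:23679115-23679364 on the plus strand for Cldn6, chr5:134985964-134986213 on the plus strand for Cldn3 and chr5:134946935-134947184 on the minus strand for Cldn4. The RefSeq start of Cldn6 is at 23679365, inside the gene as GENCODE M21 places it (first base 23679249), so that the last 116 bases of its window lie within the GENCODE gene; for Cldn3 and Cldn4 both annotations give the same start. Counted from the RefSeq start, Cldn6 has 2 GC boxes, at -140 and -8, and 1 E-box at -93, of which those at -93 and -8 are within the GENCODE gene. Cldn3 has 1 GC box at -236, and Cldn4 has a GC box at -44 and an E-box at -14. On either strand, GGGCGG was found in 32.7% and CACCTG in 17.2% of all 32851 promoter windows of this length. Of the 26 tested genes 18 had a promoter in the table, of which 9 held GGGCGG, 6 held CACCTG and 5 held CCAAT (33.8% of all windows). None of the 18 held TATAAA (12.4% of all windows), TGTTTAC (3.17%) or AACCGG (5.62%), and such matches of letters are a description only.

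Of the 9 tested claudins, 4 were lower in beta than in alpha cells, delta cells exceeded beta cells in 4 and alpha cells in 1, and none went in the opposite direction. The matching shares of all genes were 4.82%, 11.7% and 5.33%. Cldn6, a claudin best known from embryonic epithelia, was abundant in alpha and delta cells and close to 0 in most beta samples. Its level was 27.0, 17.4, 11.8, 21.3 and 49.5 FPKM in alpha samples 1 to 5, against 0.250, 4.02, 0 and 0.352 FPKM in beta samples 1 to 4. In delta cells it ran from 41.1 through a median of 55.0 to 81.6 FPKM. Beta samples overlapped with neither of the other types, whereas alpha sample 5 lay within the range of the delta samples. The log2 difference was -3.79 ± 0.49 (SE) in beta against alpha (limma, adjusted p = 0.000102) and 5.04 ± 0.47 in delta against beta cells (limma, adjusted p = 2.61e-06). Delta against alpha cells differed by 1.25 ± 0.44, which did not pass (limma, adjusted p = 0.120), but did without alpha sample 5 (adjusted p = 0.0430) or beta sample 2 (adjusted p = 0.0347, both limma). Those 2 samples held the highest value of their groups. Cldn6 is on chromosome 17 (GRCm38, 23679249 to 23682446, plus strand).

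Cldn9 lies 137 bases beyond the end of Cldn6 on the other strand (chromosome 17, 23682584 to 23684026), so that both genes end towards each other without overlap. It was listed at 0 in all 4 beta samples. Alpha samples 1 to 5 were at 0.987, 2.45, 1.10, 1.19 and 0.733 FPKM, and delta samples ran from 6.05 through 7.48 to 11.5 FPKM. The 3 cell types did not overlap, in the order beta, alpha, delta. The log2 differences were -1.16 ± 0.28 in beta against alpha (limma, adjusted p = 0.0176), 2.05 ± 0.25 in delta against alpha (limma, adjusted p = 4.69e-05) and 3.20 ± 0.26 in delta against beta cells (limma, adjusted p = 6.90e-07). The beta against alpha call of Cldn9 was lost with a filter at 5 FPKM.

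Cldn3 and Cldn4, 2 claudins of tight epithelia, lie 39279 bases apart on chromosome 5 (Cldn3, 134986214 to 134987472, plus strand; Cldn4, 134945119 to 134946934, minus strand). Cldn3 was at 4.65, 8.33, 3.49, 3.03 and 1.46 FPKM in alpha samples, at 1.05, 4.62, 0.262 and 0.540 FPKM in beta samples, and at 4.91 to 20.8 FPKM (median 8.40) in delta samples. The lowest delta sample was above the highest beta sample, and the log2 difference of delta against beta cells was 2.26 ± 0.48 (limma, adjusted p = 0.00460). Alpha samples overlapped with both, and neither of their comparisons was called (limma, adjusted p = 0.192 against beta and 0.180 against delta), although beta against alpha cells passed at -1.57 without beta sample 2 (limma, adjusted p = 0.0431) and delta against alpha cells at 1.48 with the ribosomal protein set as a covariate (limma, adjusted p = 0.00409).

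Cldn4 was at 15.1, 23.3, 7.72, 10.4 and 8.47 FPKM in alpha samples and at 3.26, 7.43, 1.67 and 1.41 FPKM in beta samples, while delta samples ran from 8.48 through 10.03 to 38.1 FPKM. Beta samples were below all others. The log2 difference was -1.73 ± 0.49 in beta against alpha (limma, adjusted p = 0.0414) and 1.82 ± 0.47 in delta against beta cells (limma, adjusted p = 0.0158). The beta against alpha call was lost in 11 of the 15 fits that left out 1 sample: without alpha samples 1, 2 or 4, beta samples 1, 3 or 4, or delta samples 1, 3, 4, 5 or 6, with an adjusted p of at most 0.138 (limma, without beta sample 4). The beta against alpha call was also lost with a filter at 0.1 FPKM or none and with only the 2 cell types in the fit. The delta against beta call was lost without beta sample 4 only (limma, adjusted p = 0.0649).

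Cldn11, the claudin of myelin and of the Sertoli cell barrier, had its higher values in alpha cells. It was at 1.91, 1.97, 0.0734, 1.32 and 2.16 FPKM in alpha samples, listed at 0 in all 4 beta samples and between 0.0426 and 0.474 FPKM (median 0.198) in delta samples. Alpha sample 3 stood apart at the level of the delta samples, and the alpha and beta samples did not overlap. Cldn11 (chromosome 3, 31149920 to 31164324, plus strand) differed by -1.22 ± 0.32 on the log2 scale in beta against alpha cells (limma, adjusted p = 0.0300). That call was lost without alpha sample 1 (adjusted p = 0.0525) or alpha sample 2 (adjusted p = 0.0542, both limma), and delta against alpha cells missed the threshold at -0.94 (limma, adjusted p = 0.0651) and passed without alpha sample 3 at -1.22 (adjusted p = 0.00145), and without beta sample 1, beta sample 2 or delta sample 5 (adjusted p = 0.0456, 0.0494 and 0.0427, all limma). It also passed with the 0.1 FPKM filter or none, with both other scalings, in the 9 samples of low ribosomal protein sum and without alpha sample 3 and delta sample 4 (limma, adjusted p = 0.000916 to 0.0424). The beta against alpha call of Cldn11 was also lost with only the 2 cell types in the fit.

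The remaining 4 claudins that were tested were called in no comparison. Cldn7, a claudin of basolateral membranes as well as junctions, had a mean of 21.8 ± 12.6 FPKM (SD, n = 5) in alpha, 27.5 ± 25.0 (n = 4) in beta and 35.7 ± 15.8 (n = 6) in delta cells, and delta against alpha cells passed when the ribosomal protein set was a covariate (1.15; limma, adjusted p = 0.0186). The beta mean of Cldn7 was 15.05 FPKM without beta sample 2. Cldn12, a claudin of calcium-transporting epithelia, was at 13.4 ± 6.37, 10.5 ± 9.52 and 14.4 ± 7.83 FPKM, and Cldn23 at 0.686 ± 0.835, 0.129 ± 0.1002 and 1.99 ± 2.01 FPKM in the same order. All delta samples were above all beta samples for Cldn23, with a log2 difference of 1.19 that missed the threshold (limma, adjusted p = 0.0790) and passed without delta sample 6 (adjusted p = 0.0419) or with a pseudocount of 0.1 (adjusted p = 0.0398, both limma). Without their highest samples the means were 5.87 FPKM for Cldn12 in beta cells (beta sample 2) and 1.25 FPKM for Cldn23 in delta cells (delta sample 2) and 0.447 FPKM in alpha cells (alpha sample 2). Cldn25 carries the identifier that GENCODE M21 names Cldnd1, a claudin domain-containing gene on chromosome 16 (58727910 to 58734251, plus strand). It had the highest mean of the claudins in beta cells, at 9.19, 104.8, 13.1 and 24.7 FPKM. That mean rested on beta sample 2 and was 15.7 FPKM without it, while alpha samples were at 25.0, 29.1, 18.7, 29.7 and 20.8 FPKM and delta samples at 19.6 to 42.7 FPKM (median 35.6). Without beta sample 2, Cldn25 was higher in delta than beta cells by 1.08 (limma, adjusted p = 0.0465).

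**Figure D2:**
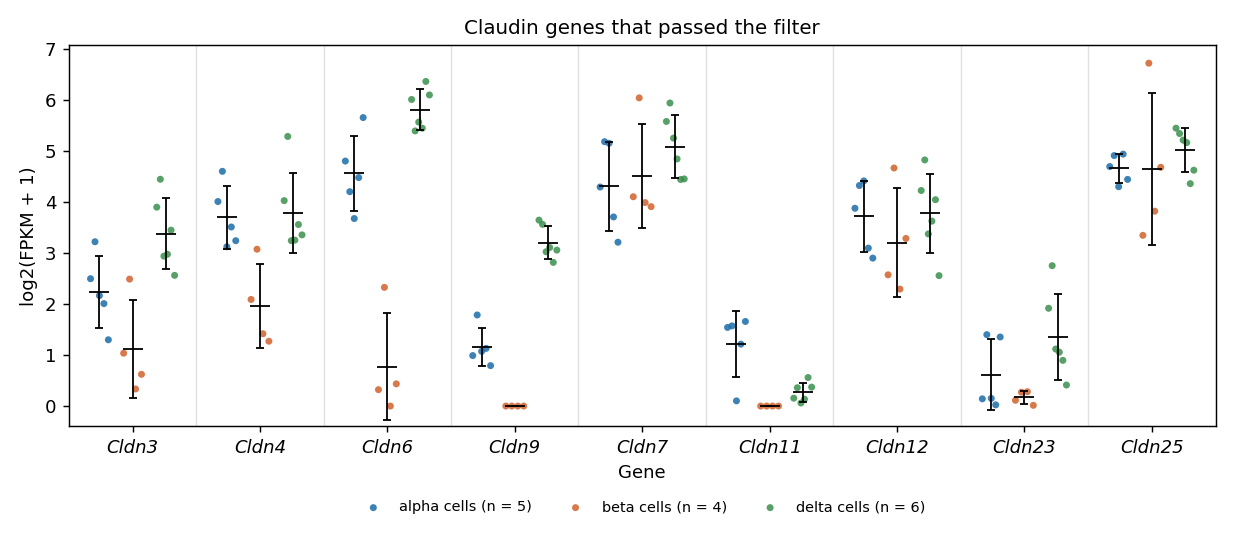
Level of the 9 tested claudin genes in each sample as log2(FPKM + 1); points are samples (alpha n = 5, beta n = 4, delta n = 6), horizontal marks are means and bars are 1 SD. Beta samples lie below the delta samples for Cldn3, Cldn4, Cldn6 and Cldn9, and at 0 for Cldn9 and Cldn11, while Cldn7, Cldn12 and Cldn25 overlap between the cell types.

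Claudins are also genes of the exocrine pancreas, so markers of those cells were read beside them. The summed level of 5 ductal marker genes was 40.4 to 184 FPKM in alpha, 14.3 to 32.7 FPKM in beta and 36.9 to 106 FPKM in delta samples, so that the beta samples were below all others, as they were for Cldn4 and Cldn6. Krt19, a defining keratin of duct cells, was listed at 0 in all delta samples and reached 4.27 FPKM in alpha and 0.645 FPKM in beta samples; Sox9, a duct transcription factor, was at most 0.0114 FPKM in alpha and 0.0131 FPKM in beta samples and had a mean of 1.29 FPKM in delta samples. The 7 acinar marker genes summed to 0.0651 to 65.7 FPKM in alpha, 0.0283 to 8.82 FPKM in beta and 19.6 to 478 FPKM in delta samples, and none of them had a mean above 1 FPKM in beta cells. Without alpha sample 3 and delta sample 4, which had the highest acinar sums of their groups, 12 members were again called in delta against beta cells, 7 rather than 8 in beta against alpha cells, where Cldn4 lost its call (limma, adjusted p = 0.0551), and 3 higher and 3 lower rather than 5 and 1 in delta against alpha cells, where Cdh1 and Itgb6 lost their call and Cldn11 and Itgav gained one as lower. The part of these cells in the claudin levels was not tested.

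Of the cadherins Cdh1 (E-cadherin) had the highest mean in all 3 cell types. Cdh1 was at 14.2, 7.72, 3.32, 25.4 and 23.8 FPKM in alpha samples, at 29.0, 45.2, 17.0 and 46.5 FPKM in beta samples and at 23.2 to 93.0 FPKM (median 69.0) in delta samples. The groups overlapped in every comparison. Delta cells were higher than alpha cells by 2.13 ± 0.52 on the log2 scale (limma, adjusted p = 0.0168), while beta cells lay between them and were not called against either (limma, adjusted p = 0.169 against alpha and 0.380 against delta). In the 9 samples with a low sum of ribosomal protein genes the delta against alpha difference was 1.61 (limma, adjusted p = 0.0643) and delta against beta cells passed at 1.41 (limma, adjusted p = 0.0257), and without alpha sample 3 and delta sample 4 the delta against alpha difference was also 1.61 (limma, adjusted p = 0.0982). Cdh1 is on chromosome 8 (106603351 to 106670246, plus strand).

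Cdh2 had a mean of 10.6 ± 7.34 FPKM (SD, n = 5) in alpha, 25.2 ± 15.1 (n = 4) in beta and 40.4 ± 23.3 (n = 6) in delta cells, the same order as Cdh1. None of its comparisons was called with all samples, and the nearest was delta against alpha at 1.82 (limma, adjusted p = 0.0790), which passed without alpha sample 5 (adjusted p = 0.0411), beta sample 3 (adjusted p = 0.0471) or delta sample 2 (adjusted p = 0.0286, all limma). Cdh8, a type II cadherin of neurons, had means of 11.5 ± 18.5, 25.3 ± 23.4 and 24.2 ± 7.03 FPKM in alpha, beta and delta cells and was not called. Its alpha mean rested on sample 1, at 44.6 FPKM, with the other 4 at 2.15 to 4.50 FPKM. Without that sample Cdh8 was higher than in alpha cells by 2.21 in beta cells (limma, adjusted p = 0.0270) and by 2.56 in delta cells (limma, adjusted p = 0.00513), and its alpha mean was 3.25 FPKM. Its beta mean was 14.4 FPKM without beta sample 2. Cdh4 (R-cadherin) was at 1.32 ± 1.63, 0.869 ± 0.385 and 3.15 ± 2.92 FPKM and was not called either; its alpha mean was 0.652 FPKM without alpha sample 3. In the 9 samples of low ribosomal protein sum Cdh4 was higher in delta than beta cells by 1.54 (limma, adjusted p = 0.0316) and Cdh8 in delta than alpha cells by 2.58 (limma, adjusted p = 0.0378), and the latter also passed with the set as a covariate (limma, adjusted p = 0.0400).

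The cadherins Cdh9, Cdh7 and Cdh22 had lower levels, and each was highest in a different cell type. Cdh9, a type II cadherin known from synapses, had its values in alpha cells, at 5.63, 8.14, 4.45, 1.15 and 4.92 FPKM. It was listed at 0 in all 4 beta samples and was 0.0911 to 0.518 FPKM (median 0.256) in delta samples, so that alpha samples overlapped with neither. Cdh9 (chromosome 15, 16728756 to 16857094, plus strand) differed by -2.41 ± 0.35 in beta against alpha (limma, adjusted p = 0.000308) and by -2.08 ± 0.31 in delta against alpha cells (limma, adjusted p = 0.000373). In the 9 samples of low ribosomal protein sum the latter was -1.52 and missed the threshold (limma, adjusted p = 0.0543).

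Cdh7, also a type II cadherin, was highest in beta cells. It was at 5.18, 11.5, 2.78 and 6.12 FPKM in beta samples, at 3.01, 0, 3.08, 0.321 and 0.346 FPKM in alpha samples and at 0.00523 to 0.465 FPKM (median 0.117) in delta samples. Beta sample 3 lay below alpha samples 1 and 3, and all beta samples lay above the delta samples. Cdh7 (chromosome 1, 109982431 to 110140157, plus strand) differed by 1.78 ± 0.45 in beta against alpha (limma, adjusted p = 0.0235) and by -2.53 ± 0.43 in delta against beta cells (limma, adjusted p = 0.000829). The former call was lost without alpha sample 2 (adjusted p = 0.0573) or beta sample 4 (adjusted p = 0.0624, both limma). That call was also lost with a filter at 5 FPKM and with only the 2 cell types in the fit.

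Cdh22, which is expressed in the brain and pituitary, was highest in delta cells, at 2.19 to 4.64 FPKM (median 3.55). Alpha samples were at 0, 0, 0.0804, 0 and 0.291 FPKM and beta samples at 0.2995, 1.401, 0.323 and 0.186 FPKM, all below the lowest delta sample. Cdh22 (chromosome 2, 165111507 to 165234853, minus strand) differed by 2.06 ± 0.25 in delta against alpha (limma, adjusted p = 5.35e-05) and by 1.58 ± 0.27 in delta against beta cells (limma, adjusted p = 0.000844).

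**Figure D3:**
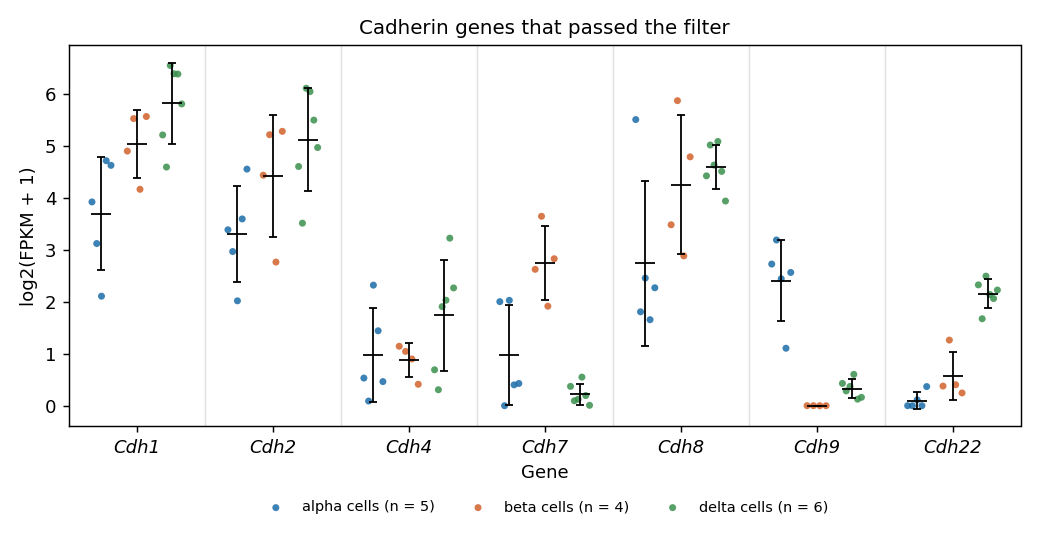
Level of the 7 tested cadherin genes in each sample as log2(FPKM + 1); points are samples (alpha n = 5, beta n = 4, delta n = 6), horizontal marks are means and bars are 1 SD. Cdh9 is separated upwards in alpha cells and Cdh22 in delta cells, Cdh7 is above the delta samples in all 4 beta samples, and Cdh1 and Cdh2 overlap between all cell types.

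Of the 6 tested integrin alpha genes, beta cells exceeded alpha cells in 2 and delta cells in 4, beside 2.84% and 2.99% of all genes in these directions. Itgav, the alpha chain of the integrins that bind RGD-containing ligands such as vitronectin, was the most abundant of them in alpha and beta cells. It was at 23.5, 8.96, 4.31, 9.54 and 33.3 FPKM in alpha samples, at 19.1, 61.8, 58.3 and 43.4 FPKM in beta samples and at 0.735 to 5.41 FPKM (median 3.95) in delta samples. All beta samples were above all delta samples, and alpha samples reached into both ranges. Itgav (chromosome 2, 83724397 to 83806916, plus strand) differed by -3.32 ± 0.53 in delta against beta cells (limma, adjusted p = 0.000519). The comparisons with alpha cells missed the threshold, at 1.65 for beta (limma, adjusted p = 0.0828) and -1.68 for delta (limma, adjusted p = 0.0563), and both passed when samples were scaled by the median ratio (limma, adjusted p = 0.0355 and 0.0459). The former also passed without alpha sample 5 (adjusted p = 0.0404) and the latter without alpha sample 3 (adjusted p = 0.0209, both limma).

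Itga6, an alpha chain of laminin receptors, was at 10.7, 16.8, 5.63 and 17.3 FPKM in beta samples. Alpha samples were at 1.11, 3.78, 3.21, 0.920 and 1.46 FPKM and delta samples at 1.17 to 3.09 FPKM (median 2.01), all below the lowest beta sample. Itga6 (chromosome 2, 71745616 to 71858416, plus strand) differed by 2.12 ± 0.38 in beta against alpha (limma, adjusted p = 0.00226) and by -2.08 ± 0.37 in delta against beta cells (limma, adjusted p = 0.00112). Delta and alpha cells differed by 0.05 (limma, adjusted p = 0.979).

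Itgad, the alpha D chain of a leukocyte integrin, was at 3.37, 3.02, 3.75 and 8.88 FPKM in beta samples. It was listed at 0 in alpha samples 1, 2, 3 and 5 and was 0.115 FPKM in alpha sample 4, and it ran from 0 through 0.0649 to 0.514 FPKM in delta samples. The log2 difference was 2.39 ± 0.29 in beta against alpha (limma, adjusted p = 6.55e-05) and -2.25 ± 0.28 in delta against beta cells (limma, adjusted p = 5.72e-05), with no overlap in either. Itgad (chromosome 7, 128154376 to 128223816, plus strand) contains within its span the whole of Cox6a2, a cytochrome c oxidase subunit on the other strand, and the genes share 70 exonic bases (1.55% of those of Itgad). Cox6a2 was at 75.0, 342, 97.5 and 75.5 FPKM in beta samples, 1.53 to 10.3 FPKM in alpha and 0.768 to 2.99 FPKM in delta samples. The counting was not stated to use strand, so reads of both genes cannot be told apart where they overlap. In addition, 19.7% of the 50-base stretches of Itgad occur in transcripts of other genes, and the value of Itgad is therefore uncertain.

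Itga4, the alpha chain that pairs with Itgb1 or Itgb7 to bind VCAM1 and fibronectin, was at 1.86, 2.64, 0.949 and 3.64 FPKM in beta samples, 0.687, 1.19, 1.11, 0.365 and 1.28 FPKM in alpha samples and 0.417 to 0.913 FPKM (median 0.607) in delta samples. Beta samples were above all delta samples by a narrow margin at sample 3. The delta against beta difference was -0.94 ± 0.28 (limma, adjusted p = 0.0340), and the call was lost without beta sample 2 (adjusted p = 0.0508) or beta sample 4 (adjusted p = 0.0915, both limma). It was also lost in the 9 samples of low ribosomal protein sum (limma, adjusted p = 0.116). Beta against alpha cells was called without beta sample 3 only among the fits that left out 1 sample (0.94; limma, adjusted p = 0.0399). Itga4 (chromosome 2, 79255426 to 79333123, plus strand) shares 1124 exonic bases (8.04% of its own) with Cerkl on the other strand, whose mean was 12.9 FPKM in alpha, 24.6 in beta and 10.7 in delta cells.

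Itga3, another laminin-binding alpha chain, had the highest mean of its class in delta cells, at 2.42 to 11.03 FPKM (median 8.01). Alpha samples were at 2.05, 9.504, 2.09, 4.10 and 6.06 FPKM and beta samples at 1.65, 3.94, 1.53 and 3.60 FPKM. The groups overlapped and no comparison was called with all samples, the nearest being delta against beta at 1.14 (limma, adjusted p = 0.0945); within the 9 samples of low ribosomal protein sum that difference was 1.72 (limma, adjusted p = 0.00655), and without delta sample 2 it was 1.38 (limma, adjusted p = 0.0372). Itga10, a collagen-binding chain, had means of 1.27 ± 1.89, 0.0843 ± 0.041 and 0.392 ± 0.591 FPKM in alpha, beta and delta cells and was not called. Its alpha mean rested on sample 1 at 4.59 FPKM and was 0.446 FPKM without it, below the filter of 1 FPKM, and its delta mean was 0.157 FPKM without delta sample 6. Of its 50-base stretches 30.6% occur in transcripts of the overlapping gene Gm42957.

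Among the beta chains, Itgb1, the common partner of most alpha chains, was the most abundant in all 3 cell types and was called in no comparison. It was at 43.8, 30.7, 30.2, 26.5 and 39.5 FPKM in alpha samples, 15.4, 44.9, 17.7 and 48.0 FPKM in beta samples and 22.9 to 52.1 FPKM (median 33.1) in delta samples. The 95% intervals of its log2 differences were -1.13 to 0.61 in beta against alpha, -0.75 to 0.82 in delta against alpha and -0.54 to 1.14 in delta against beta cells (limma). Itgb5, a partner of Itgav, was at 2.27 ± 1.79 (SD, n = 5), 5.71 ± 5.73 (n = 4) and 5.64 ± 3.54 FPKM (n = 6) in alpha, beta and delta cells and was not called. Its beta mean was 2.90 FPKM without beta sample 1, which was at 14.1 FPKM.

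Itgb8 and Itgb6, which pair with Itgav to form the integrins that activate latent TGF-beta, were higher in delta cells, in which Itgav itself was lowest. Itgb8 was at 0.853, 0.0855, 0.289, 0.635 and 1.07 FPKM in alpha samples, 1.02, 1.27, 0.821 and 1.86 FPKM in beta samples and 2.43 to 5.86 FPKM (median 4.14) in delta samples. All delta samples were above all others. Itgb8 (chromosome 12, 119158022 to 119238802, minus strand) differed by 1.72 ± 0.27 in delta against alpha (limma, adjusted p = 0.000563) and by 1.21 ± 0.29 in delta against beta cells (limma, adjusted p = 0.0100).

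Itgb6 was spread widely within delta cells, at 0.663, 0.499, 7.76, 10.2, 16.0 and 3.75 FPKM in samples 1 to 6. Samples 1 and 2 were the delta samples with a high sum of ribosomal protein genes. Alpha samples were at 0.119, 0, 0, 0.489 and 0.246 FPKM and beta samples at 0.0138, 0.157, 0.00365 and 0.00656 FPKM, so that the lowest delta sample was above the highest alpha sample by a narrow margin. The log2 difference was 2.17 ± 0.54 in delta against alpha (limma, adjusted p = 0.0194) and 2.32 ± 0.57 in delta against beta cells (limma, adjusted p = 0.0120). The delta against alpha call was lost without alpha sample 3 (adjusted p = 0.0503), delta sample 3 (adjusted p = 0.0535) or delta sample 4 (adjusted p = 0.0526, all limma), and without alpha sample 3 and delta sample 4 together the difference was 1.89 (limma, adjusted p = 0.115). The delta against alpha call of Itgb6 was also lost with a filter at 5 FPKM and with only the 2 cell types in the fit. Itgb6 is on chromosome 2 (60598292 to 60722643, minus strand).

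**Figure D4:**
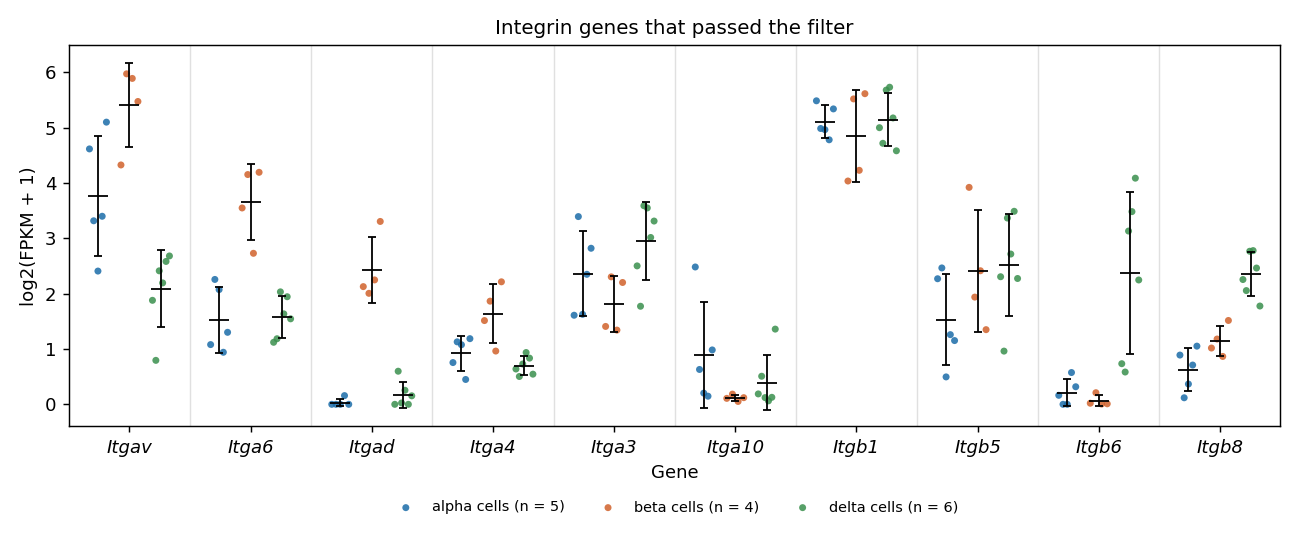
Level of the 10 tested integrin genes in each sample as log2(FPKM + 1); points are samples (alpha n = 5, beta n = 4, delta n = 6), horizontal marks are means and bars are 1 SD. Beta samples lie above the delta samples for Itgav, Itga6, Itgad and Itga4, delta samples lie above all others for Itgb6 and Itgb8, and Itgb1 overlaps between the cell types.

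Levels were also summed over each family, without a test. The 23 cadherin genes summed to 46.3 ± 23.1 FPKM (SD, n = 5) in alpha, 93.1 ± 53.3 (n = 4) in beta and 135.3 ± 54.6 (n = 6) in delta cells. The 25 claudin genes summed to 106.0 ± 19.7, 83.6 ± 87.2 and 176.9 ± 43.3 FPKM, where beta sample 2 alone reached 213.9 FPKM and the lowest beta sample 34.3. Among them were Cldn25 (means of 24.7, 38.0 and 32.8 FPKM) and Cldn26 (listed at 0), which GENCODE M21 names Cldnd1 and Tmem114. The 18 integrin alpha genes summed to 25.6 ± 12.6, 69.0 ± 22.3 and 16.1 ± 5.60 FPKM, and the 8 integrin beta genes to 37.3 ± 8.07, 38.5 ± 13.96 and 52.8 ± 20.5 FPKM. Sums of integrin alpha genes thus had their lowest mean in delta cells, and those of integrin beta genes their highest.

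Some members mark other cells and were read at whatever level they had. Cdh5 (VE-cadherin of endothelial cells) was at most 0.0806 FPKM in any sample. Among the leukocyte integrins, Itgam was at most 0.331 FPKM, Itgal 0.0321, Itgax 0.0048 and Itgb2, the beta chain with which Itgad, Itgal, Itgam and Itgax pair, 0.0672 FPKM. Itgb2 was listed at 0 in all alpha and all beta samples, including those in which Itgad was at 3.02 to 8.88 FPKM. The megakaryocyte chain Itga2b had means of 0.387, 0.00694 and 0.956 FPKM in alpha, beta and delta cells, and Itgb3, which pairs with it and with Itgav, 0.125, 0.00574 and 0.224 FPKM. Besides Itga2b, the genes that exceeded 1 FPKM in at least 1 sample without being tested were Cdh13 and Cdh18, with a highest value of 2.08 and 1.72 FPKM in alpha cells, Cdh23, with 1.20 FPKM in delta cells, and Cldn8 and Itga9, with 3.39 and 1.22 FPKM in beta cells. In bulk samples, fewer cells of a type and less RNA per cell cannot be told apart.

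Genes that work with the members were counted by lists of known partners. Of 17 tested catenins, plakins, plakophilins, nectins and related partners of cadherin junctions, 1 was higher in beta than alpha cells, 2 in delta than alpha cells and 1 in delta than beta cells, and none was lower. Over all genes 2.84%, 5.33% and 11.7% were called higher in these comparisons. Pvrl3 (nectin-3), a junctional adhesion protein, had a mean of 7.02 ± 2.25 FPKM (SD, n = 5) in alpha, 62.4 ± 52.1 (n = 4) in beta and 25.3 ± 5.09 (n = 6) in delta cells. Its log2 difference was 2.58 in beta against alpha (limma, adjusted p = 0.00574) and 1.75 in delta against alpha cells (limma, adjusted p = 0.0314). Leaving out 1 sample, the former lay between 2.09 (without beta sample 2) and 3.11 (without beta sample 3). Pvrl1 (nectin-1) was higher in delta than alpha cells by 1.26 (limma, adjusted p = 0.0230) and Pvrl2 (nectin-2) in delta than beta cells by 1.71 (limma, adjusted p = 0.00722). The Pvrl3 call in delta against alpha cells was lost without any 1 of the 5 alpha samples or without delta samples 1, 3, 4 or 5 (limma, adjusted p of at most 0.0840), and that of Pvrl1 without alpha sample 2 (limma, adjusted p = 0.0603). With the replicate number as a block, Pvrl3 lost its call in delta against alpha cells as well (limma, adjusted p = 0.0799). The catenin genes were among those not called. The median log2 difference of the list was 0.55, 0.85 and 0.33 in beta against alpha, delta against alpha and delta against beta cells, beside -0.13, 0.13 and 0.30 for all genes tested.

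Tight junction partners numbered 18 tested, with none called lower in any comparison, where 4.82%, 1.48% and 2.99% of all genes were. Pard3 was higher in beta than alpha cells, beside 2.84% of all genes. Jam2 and Pard3 were among those higher in delta than alpha cells, beside 5.33% of all genes. In delta against beta cells 3 were higher (Jam2, F11r, Pard6b), beside 11.7% of all genes. Jam2, a junctional adhesion molecule, was at 4.27 ± 2.23 FPKM (SD, n = 5) in alpha, 8.34 ± 4.47 (n = 4) in beta and 35.03 ± 10.98 (n = 6) in delta cells. It differed by 2.83 in delta against alpha (limma, adjusted p = 0.000169) and by 2.05 in delta against beta cells (limma, adjusted p = 0.00339). Pard3, a polarity scaffold, differed by 2.48 in beta against alpha (limma, adjusted p = 0.00298) and by 1.62 in delta against alpha cells (limma, adjusted p = 0.0238), and F11r (JAM-A) by 1.68 in delta against beta cells (limma, adjusted p = 0.0366). Calls were lost for Pard3 in delta against alpha cells without alpha samples 1, 2 or 3 or delta samples 3, 4 or 5 (limma, adjusted p of at most 0.0758). F11r lost its call without beta samples 1, 3 or 4 or delta samples 1, 2, 3, 4 or 5, and Pard6b without beta samples 1 or 3 or delta samples 3, 5 or 6 (limma, adjusted p of at most 0.109 and 0.0954). The medians of this list were 0.05, 0.83 and 0.92 in the same order of comparisons.

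Of 16 tested proteins that bind integrin tails or signal from them, 1 was lower in beta than alpha cells (Zyx), 2 were higher in delta than alpha (Fermt1, Pxn) and 4 in delta than beta cells (Fermt1, Ptk2b, Pxn, Zyx). The matching shares of all genes were 4.82%, 5.33% and 11.7%. Fermt1 (kindlin-1), which binds integrin beta tails and switches integrins to their active state, was at 0.131 ± 0.162 FPKM (SD, n = 5) in alpha, 0.00741 ± 0.011 (n = 4) in beta and 5.57 ± 1.74 (n = 6) in delta cells. It differed by 2.50 in delta against alpha (limma, adjusted p = 5.45e-06) and by 2.66 in delta against beta cells (limma, adjusted p = 4.57e-06). Pxn (paxillin, a focal adhesion adaptor) was higher in delta cells by 1.29 against alpha (limma, adjusted p = 0.0196), Ptk2b (the kinase PYK2) by 1.90 against beta (limma, adjusted p = 0.0116), and Zyx (zyxin) differed by -1.32 in beta against alpha cells (limma, adjusted p = 0.0489). The Zyx call in beta against alpha cells was lost without alpha samples 2, 3, 4 or 5, beta samples 1, 3 or 4, or delta samples 1, 3, 4 or 6 (limma, adjusted p of at most 0.123). Pxn in delta against alpha cells lost its call without alpha samples 1 or 3 (limma, adjusted p of at most 0.0572) and Ptk2b without beta sample 4 (limma, adjusted p = 0.0513). The medians of the list were -0.16, 0.40 and 0.74.

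Matrix ligands were mostly low, with 6 of the 25 genes tested. Of these 1 was higher and 2 were lower in beta against alpha cells (2.84% and 4.82% of all genes), 1 was higher and 2 were lower in delta against alpha cells (5.33% and 1.48%), and 1 was higher in delta against beta cells (11.7%). Npnt (nephronectin), an integrin ligand, was at 0.407 ± 0.261 FPKM (SD, n = 5) in alpha, 3.56 ± 0.351 (n = 4) in beta and 14.8 ± 2.71 (n = 6) in delta cells. Its log2 differences were 1.71 in beta against alpha (limma, adjusted p = 0.000458), 3.49 in delta against alpha (limma, adjusted p = 8.78e-08) and 1.78 in delta against beta cells (limma, adjusted p = 0.000139). Itga8, the alpha chain of its best-known receptor, was listed at 0 in all 15 samples. Nid1 (nidogen-1), which links laminin to collagen IV, was higher in alpha cells at 4.86 ± 3.99 FPKM, with means of 0.0419 and 0.0582 FPKM in beta and delta cells. Nid1 differed by -2.17 in beta against alpha (limma, adjusted p = 0.00610) and -2.15 in delta against alpha cells (limma, adjusted p = 0.00227), and Lama2, a laminin chain, by -1.24 in both (limma, adjusted p = 0.0420 and 0.0244). The Lama2 call in beta against alpha cells was lost without alpha sample 4 or beta samples 1, 3 or 4 (limma, adjusted p of at most 0.0749). The medians of the list were -1.01, -0.79 and 0.24. The fibroblast marker Col1a2 had the same order as Nid1 and Lama2, at 0.848 to 3.79 FPKM in alpha, at most 0.00687 in beta and at most 0.0576 in delta samples, while Col1a1 was listed at 0 in all samples. The whole list of 5 fibroblast markers summed to 0.848 to 3.81 FPKM in alpha, at most 0.00687 FPKM in beta and at most 0.0576 FPKM in delta samples, and Dcn and Col3a1 were at most 0.0227 and 0.00774 FPKM. The part of such cells in the levels of Nid1 and Lama2 was not tested.

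The samples matched their labels by hormone gene, with Gcg at 184426 to 344947 FPKM in alpha, Ins2 at 91248 to 638871 FPKM in beta and Sst at 101492 to 266276 FPKM in delta samples. Outside those samples Gcg was at 166 to 1817 FPKM in beta and 236 to 767 FPKM in delta samples. Ins2 was at 2634 to 9094 FPKM in alpha and 3803 to 7190 FPKM in delta samples. Sst was at 1139 to 2427 FPKM in alpha and 37.9 to 461 FPKM in beta samples. The delta transcription factor Hhex was at 42.1 to 93.2 FPKM in delta samples and the beta cell factor Mafa was at 0.743 to 6.56 FPKM in beta samples and at most 0.358 FPKM in the others. Ppy, the marker of PP cells, was at 17728 to 41392 FPKM in alpha, 16.9 to 98.1 FPKM in beta and 10857 to 48600 FPKM in delta samples. Markers of endothelial cells, leukocytes and Schwann cells summed to at most 6.17, 10.3 and 9.26 FPKM in any sample. An approximate read depth of 7.4 M to 30.5 M reads was inferred in 3 samples. It came from steps in the low FPKM values of genes with 1 transcript, with GENCODE M21 lengths, though the authors' annotation is unknown. Depth is unknown in the other 12 samples, so no limit of detection is given. A value of 0 means that the gene was listed at 0. Samples fell into 2 sets by the summed level of 80 ribosomal protein genes, 6 at 65133 to 139502 FPKM (3 alpha, 1 beta, 2 delta) and 9 at 7813 to 38491 FPKM (2 alpha, 3 beta, 4 delta). All 26 called differences of members had the same direction in the means of both sets. They had been called on these same samples, and the high set held 1 beta sample, so this is a description and no separate test. For Cldn6 the means in alpha, beta and delta cells were 18.7, 4.02 and 52.4 FPKM in the high set and 35.4, 0.201 and 59.6 FPKM in the low set, and for Itgav 12.3, 61.8 and 1.71 FPKM and 21.4, 40.3 and 4.58 FPKM. Cdh1 was at 8.41, 45.2 and 29.7 FPKM in the high set and 24.6, 30.8 and 78.5 FPKM in the low set, so that delta cells were above beta cells in the low set only.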

How the data were processed

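RNA of sorted cells was amplified by the authors (NuGEN) and sequenced as single 50 nt reads. The deposited values are FPKM per gene and sample, made by the authors with Cufflinks 2.2.1 after alignment to GRCm38; the submitters' processing notes list TopHat2 2.0.8, and the annotation release and any scaling between samples are not given in the sources used here. The authors tested raw counts with edgeR; those were not used here.

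Samples were grouped by the cell type in their labels. Genes with a mean above 1 FPKM in at least 1 of the 3 cell types (14405) were compared on log2(FPKM + 1) with limma 3.58.1 in R 4.3.3 (lmFit, then eBayes with trend). A single fit held the 15 samples and the 3 cell type means, and p-values were adjusted by Benjamini-Hochberg over all genes tested. Adjusted p in the text come from this test, two-sided, at a threshold of 0.05, or, where an alternative is named, from the same test with that change. The code of the fit was also run on simulated data with known differences, and no result given here rests on that run. Other steps used Python 3.11.15, numpy 2.4.6, pandas 2.3.3 and matplotlib 3.10.9. Coordinates and overlaps are from GENCODE M21 (GRCm38), in which all 74 genes have an entry, and promoters from RefSeq (GRCm38.p6).

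The symbol rule that defines the members, the partner and marker lists and the alternatives were chosen with earlier results of these data known. Named with sample values (for delta cells mostly the lowest, median and highest) were genes called in any test and the most abundant of each family in each cell type, other tested genes with means, and of the called partner genes those with the largest differences. The limit between the ribosomal protein sets (50000 FPKM) was set after the values were seen. Alternatives were other filters, pseudocounts and scalings, covariates, and leaving out samples. A gene of the partner lists is not reported here.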

Additional observations from a re-analysis of the deposited data

Results flagged for a closer look

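In each cell type, every tested member was examined for a single sample far from the rest (Dixon's test at the 95% level on log2(FPKM + 1); levels are given in FPKM). Of 78 groups of samples 7 held such a sample, and on the FPKM scale itself 14 groups passed. A rate of 1 in 20 would give about 3.9, but that rate is for independent groups of normal values. Cdh9, Cldn9 and Cldn11 were at 0 in all beta samples, so those groups could not pass. Itgad in alpha cells had to pass, as 1 value alone was above 0. In alpha cells, Cdh8 was at 44.6 FPKM in sample 1, with the others at 2.15 to 4.50 FPKM. Cldn11 was at 0.0734 FPKM in alpha sample 3, with the others at 1.32 to 2.16 FPKM, and Itgad was at 0.115 FPKM in alpha sample 4 and listed at 0 in the others. Beta sample 2 was high in 3 genes: Cldn7 at 65.0 FPKM (others 14.04 to 16.2), Cdh22 at 1.401 FPKM (others 0.186 to 0.323) and Itgb6 at 0.157 FPKM (others 0.00365 to 0.0138). It is the only beta sample with a high sum of ribosomal protein genes. In delta cells, Itga10 was at 1.57 FPKM in sample 6, with the others at 0.0443 to 0.422 FPKM.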

How the results depend on the processing

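None of the called differences of members changed sign with a call under any alternative. The 26 called differences of members were recomputed 700 times and kept their call in 654; of the 46 losses 21 came with 1 sample left out, and 20 of the 26 kept their call in all 15 such fits. The 52 differences that were not called passed in 44 of 1405 cases. Leaving out 1 sample, the members called ranged from 13 to 15 (14 with all samples) across the 3 cell types, from 5 to 9 (8) in beta against alpha, from 5 to 8 (6) in delta against alpha and from 10 to 13 (12) in delta against beta cells; the 5 in beta against alpha came without alpha sample 2. A filter at 5 FPKM tested only 17 members and left 9 called across the cell types, 3 in beta against alpha and 2 in delta against alpha (8 in delta against beta), with 1450, 831 and 518 called of all 9184 genes. With only the 2 cell types in the fit, 5 were called in beta against alpha (520 of all 14405 genes, 1104 with all cell types), and with the ribosomal protein set as a covariate 10 in delta against alpha (1221 of all genes, 981 without it); the cause was not tested. Filters at 0.1 FPKM or none, a pseudocount of 0.1, both scalings and a fit without variance trend kept the number of members called in each comparison within 1.5 times (though both scalings gave 3 rather than 1 lower in delta against alpha, and 2078 and 1970 of all genes rather than 1104 in beta against alpha). The number of members also held, as alternatives chosen after seeing the data, for the 9 samples of low ribosomal protein sum and without alpha sample 3 and delta sample 4, though the latter gave 3 higher and 3 lower in delta against alpha. No called partner gene changed sign; both scalings lost the calls of Pvrl1, Pard3 and Pxn in delta against alpha cells, and the last 2 of these were also lost in the 9 samples and without alpha sample 3 and delta sample 4.

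The replicate numbers of the labels were tried as a block. Over 13 pairs with the same number in 2 cell types, the correlation of deviations from the group mean was -0.152 to 0.281 and exceeded 0.1 in 5, and 3 samples correlated best with their own number, so the numbers were not taken as pairs. With the replicate block over all 15 samples 14, 8, 7 and 12 members were called; the call was lost for Cdh7 in beta against alpha (adjusted p = 0.0753) and Itga4 in delta against beta (adjusted p = 0.0708, both limma) and gained for Cldn3 in beta against alpha and delta against alpha (adjusted p = 0.0336 and 0.0227) and for Cldn23 in delta against beta (adjusted p = 0.0454, all limma). With the replicate block in alpha and beta samples 1 to 4 alone, limma called 0 members and 0 genes in all, while 13 of 26 members and 2751 genes had an unadjusted p under 0.05.

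Depth is unknown in most samples, which limits what a value near 0 shows, and the log2(FPKM + 1) scale compresses genes under about 1 FPKM. Members below 1 FPKM were compared only with a lower filter or none, and without a filter Itga2, Cdh23 and Cdh10 were also called.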

Other observations

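Without a filter, 3 members of low level were called by limma that had not been tested otherwise. Itga2, the alpha chain of a collagen receptor, was at 0.372, 0.422, 0.407 and 0.394 FPKM in beta samples, with a mean of 0.00470 FPKM in alpha cells and 0 to 0.214 FPKM in delta samples. Its log2 difference was 0.48 in beta against alpha (limma, adjusted p = 7.22e-05) and -0.42 in delta against beta cells (limma, adjusted p = 0.000102), and the beta samples overlapped with neither group. Cdh23, a cadherin of the tip links of hair cells, was higher in delta cells by 0.57 against alpha (limma, adjusted p = 0.0346) and 0.62 against beta (limma, adjusted p = 0.0216). Cdh10, a type II cadherin, was higher in delta than alpha cells by 0.40 (limma, adjusted p = 0.0465). These genes were named after their values were seen.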
